A study of Homo sapiens with 6 samples.

Results

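Nonhomologous end joining is the pathway that rejoins broken DNA ends without a template, and 9 of its genes were followed here in a human lymphoma line carrying mutant or wild-type BCL6. The 9 genes (XRCC6, XRCC5, PRKDC, DCLRE1C, LIG4, XRCC4, NHEJ1, TP53BP1 and MDC1) were taken by symbol from a table of 23250 genes, and all 9 were found and had enough reads to be tested. The cells were OCI-LY1, an established line of diffuse large B cell lymphoma (DLBCL), a tumour of mature B cells, treated in every library with siRNA against BCL6. The mutant rescue then received ectopic BCL6 mutated in RD2, its second repression domain, and the wild-type rescue received ectopic wild-type BCL6. Each rescue had 3 RNA sequencing libraries, all from this 1 line, and no library without a rescue was analysed here.

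In lymphocytes, end joining is needed for antigen receptor diversity. The RAG recombinase cuts receptor genes in developing B and T cells, and further breaks arise during class switching in activated B cells. The Ku ring of XRCC6 and XRCC5 slides onto the broken ends and holds the kinase PRKDC there, the nuclease DCLRE1C (Artemis) opens hairpin ends, and the ligase LIG4 with XRCC4 and NHEJ1 (XLF) seals them. MDC1 and TP53BP1 (53BP1) act in the chromatin around the break.

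The libraries held 26314491, 26966183 and 26298456 counts in the mutant rescue and 27574867, 26477404 and 27487686 in the wild-type rescue, and a floor of 3 counts stood at 0.109 to 0.115 CPM (read counts scaled to library size with TMM factors), which covers counting error only. The 8 B cell markers examined were detected in every library, with summed levels of 3764 to 3792 CPM in the mutant and 4122 to 4129 CPM in the wild-type rescue. The 10 markers of T, NK and myeloid cells summed to 0.745 to 1.23 CPM in the mutant and 0.293 to 0.612 CPM in the wild-type rescue, and CD2 and CD3E had no count in any library. BCL6 itself had 14166, 13726 and 13827 counts in the mutant rescue against 19069, 16998 and 18789 in the wild-type rescue, a log2 fold change of -0.38, so an effect of the RD2 change and one of the amount of BCL6 cannot be told apart. In RNA from whole cultures, fewer cells that express a gene and less RNA per cell cannot be told apart either. Whether replicate libraries are separate cultures is not in the labels, so p-values reflect only how far these libraries differ, possibly for technical reasons.

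Of the 9 genes, LIG4, DCLRE1C and XRCC4 rose, XRCC5, MDC1 and XRCC6 fell, and the test was not passed by PRKDC, NHEJ1 or TP53BP1 (threshold of 0.05 on the Benjamini-Hochberg adjusted p of edgeR's quasi-likelihood test). The 6 genes called are set against a background of 70.1% of the 12406 tested genes, so passing the test does not set this group apart. The 3 higher genes stand beside 35.4% of tested genes called higher, and the 3 lower genes beside 34.8% called lower. The values of the rescues did not overlap for 7 of the 9 genes, against 72.4% of tested genes. The median log2 fold change of the 9 genes was 0.018, against 0.010 over tested genes, and their median absolute log2 fold change was 0.20, against 0.29. LIG4 was the 1 gene of the 9 that was called and at least 2-fold higher, as were 6.3% of tested genes, and 637 of the 12406 tested genes had a higher fold change than LIG4.

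**Figure D1:**
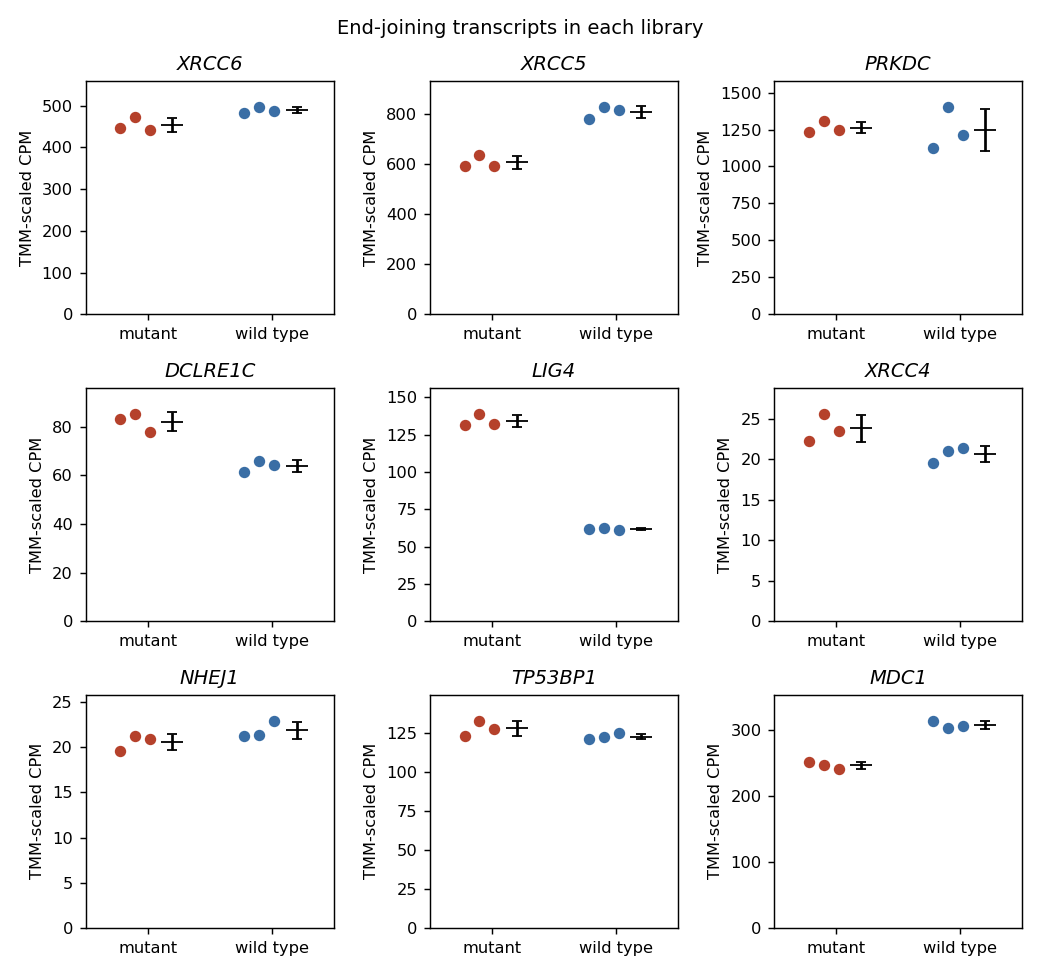
TMM-scaled CPM of the 9 end-joining genes, with each panel starting at 0, 1 point per library, and the mean with its SD beside the 3 points of each rescue. LIG4 stands at 132 to 139 CPM in the mutant and 60.9 to 62.4 CPM in the wild-type rescue, while the PRKDC points of the wild-type rescue spread over 1123 to 1403 CPM, around those of the mutant rescue.

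LIG4, XRCC4 and XRCC6 each have a start close to a gene that runs the other way. For LIG4 this is the outermost start, and other annotated starts lie further inside the gene. Which LIG4 start is used in these cells was not examined. The sequence between the starts of each pair is shown because the fold changes of these partners are compared below. It is given 5′ to 3′ on the strand of the end-joining gene, from RefSeq (GRCh38.p14), with GGGCGG and CCAAT boxes on either strand in capitals; in the LIG4 stretch neither occurs. The stretch before LIG4 (chr13:108218350-108218391, minus strand) spans all 42 bases up to ABHD13 and is 71.4% G and C. The stretch before XRCC4 (chr5:83077395-83077546, plus strand) spans all 152 bases up to TMEM167A. The stretch before XRCC6 (chr22:41621045-41621294, plus strand) gives 250 of the 251 bases up to DESI1, which the count table lists as PPPDE2.
LIG4: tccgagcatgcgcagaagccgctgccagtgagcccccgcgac
XRCC4: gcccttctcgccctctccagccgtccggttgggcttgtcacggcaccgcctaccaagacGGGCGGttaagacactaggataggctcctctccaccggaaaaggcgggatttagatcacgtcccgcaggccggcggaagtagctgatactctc
XRCC6: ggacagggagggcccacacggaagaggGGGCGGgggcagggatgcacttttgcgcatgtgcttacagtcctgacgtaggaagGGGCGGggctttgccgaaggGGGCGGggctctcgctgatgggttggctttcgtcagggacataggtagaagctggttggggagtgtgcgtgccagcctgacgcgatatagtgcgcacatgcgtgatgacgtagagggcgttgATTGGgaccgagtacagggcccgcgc

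Promoter windows from RefSeq, from 250 bases before to 50 after a start, were searched for 7 of the 9 genes. XRCC5 had no window, and PRKDC was not searched because windows on chromosome 8 were left out for the 9 genes. The shares over all windows keep that chromosome. TTCNNNGAA, a loose form of the sequence that BCL6 is known to bind, was searched for; it reads the same on both strands. It occurred in 1 of the 13 windows of the 7 genes, that of a DCLRE1C start, against 7.66% of all 35116 windows. The narrower TTCCTNGAA, searched on both strands and contained in the looser form, occurred in 0 of the 13, against 1.56% of all windows. GGGCGG, on either strand, was found in 10 of the 13 windows, against 45% of all windows, and in at least 1 window of all 7 genes, against 48.3% of genes with a window. Windows of 1 gene are not independent, since 5 of the 13 are those of LIG4 and some of these overlap. CCAAT, on either strand, was found in 8 of the 13 windows, against 34.6% of all windows. These matches describe letters in the windows and not binding.

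The Ku pair fell, unequally. XRCC5 (Ku80) had 591, 639 and 594 CPM in the mutant rescue against 779.8, 829 and 816 CPM in the wild-type rescue. Every mutant rescue library lay below every wild-type rescue library. XRCC5 was 1.33-fold lower (log2 fold change -0.41, SE 0.034; edgeR, adjusted p = 9.08e-10), the lowest fold change of the 9 genes. XRCC6 (Ku70) had 447, 473 and 441 CPM in the mutant rescue against 483, 497 and 488 CPM in the wild-type rescue. These groups did not overlap either, but the gap between them was smaller than the range within the mutant rescue. XRCC6 was 1.08-fold lower (log2 -0.11, SE 0.032; edgeR, adjusted p = 0.00508), and it missed the threshold when a change of more than 1.2-fold was asked for (edgeR glmTreat, adjusted p = 1). As a result of the unequal falls, the ratio of XRCC5 to XRCC6 counts was 1.32, 1.35 and 1.34 in the mutant rescue against 1.61, 1.67 and 1.67 in the wild-type rescue. RefSeq lists 5 pseudogenes of XRCC6, none of them a row of the count table, and how reads shared with such copies were counted is not given in the sources used here.

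PRKDC encodes the catalytic subunit of DNA-dependent protein kinase, which Ku holds at the break. It had 1236, 1305 and 1247 CPM in the mutant rescue against 1123, 1403 and 1216 CPM in the wild-type rescue. The wild-type rescue held both the highest and the lowest of the 6 values, and the groups overlapped. The log2 fold change was 0.018, with a 95% interval of -0.21 to 0.24 (edgeR, adjusted p = 0.868). The coefficient of variation of PRKDC was 2.95% in the mutant rescue and 11.4% in the wild-type rescue, and only 7 of 2861 tested genes with a mean of at least 100 CPM had a higher one in the wild-type rescue, where their median was 1.91%. Replicate 2 of the wild-type rescue decides the call: without it PRKDC was higher in the mutant rescue (log2 0.12; edgeR, adjusted p = 0.00952), and without replicate 1 of that rescue the log2 fold change was -0.053 (adjusted p = 0.444).

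DCLRE1C encodes Artemis, which PRKDC activates to cut the hairpins left by the RAG recombinase. It had 83.1, 85.4 and 78.0 CPM in the mutant rescue against 61.4, 66.1 and 64.1 CPM in the wild-type rescue. The lowest mutant rescue library was above the highest wild-type rescue library. DCLRE1C rose 1.29-fold (log2 0.36, SE 0.043; edgeR, adjusted p = 2.12e-07). The gene overlaps SUV39H2 and MEIG1 on the opposite strand and has 1 pseudogene in RefSeq. Since the strand setting of the counting is not given in the sources used here, reads from the overlaps cannot be assigned with certainty.

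**Figure D2:**
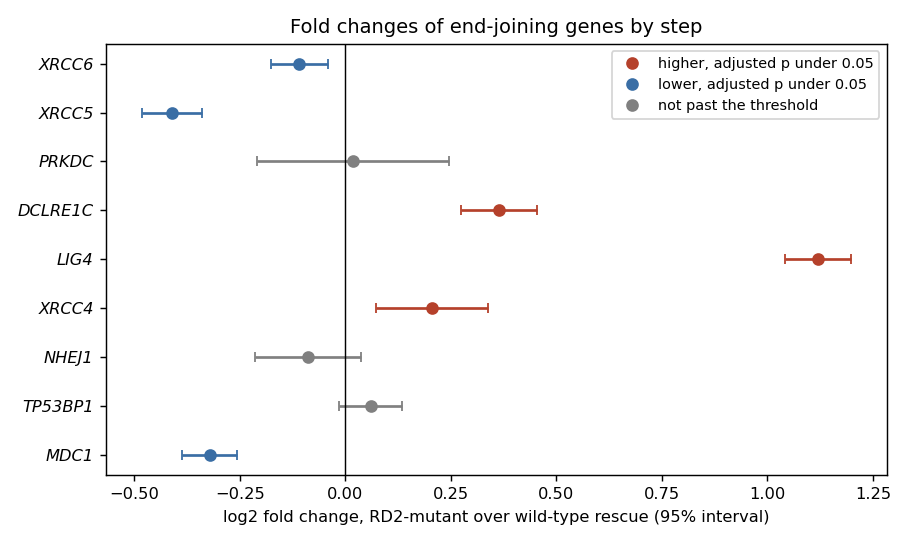
Log2 fold change of each end-joining gene (RD2-mutant over wild-type rescue) with its 95% interval from the edgeR fit, ordered by step from end binding at the top to chromatin response at the bottom. LIG4 at 1.12 stands apart from the other 8 genes, which lie between -0.41 and 0.36, and the intervals of PRKDC, NHEJ1 and TP53BP1 cross 0.

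In the ligation complex LIG4 changed most. LIG4, the ligase that joins the ends, had 132, 139 and 132 CPM in the mutant rescue against 61.9, 62.4 and 60.9 CPM in the wild-type rescue. The groups were far apart and each was tight, with coefficients of variation of 3.11% in the mutant and 1.24% in the wild-type rescue. LIG4 rose 2.17-fold (log2 1.12, SE 0.037, 95% interval 1.04 to 1.2; edgeR, adjusted p = 3.29e-16). XRCC4, the scaffold that binds and stabilises LIG4, had 22.2, 25.6 and 23.5 CPM in the mutant rescue against 19.5, 21.1 and 21.3 CPM in the wild-type rescue. The groups did not overlap, but the gap between them was smaller than the spread within either. XRCC4 rose 1.15-fold (log2 0.20, SE 0.064; edgeR, adjusted p = 0.00714) and also missed the threshold of the 1.2-fold test (glmTreat, adjusted p = 0.907). NHEJ1 (XLF), which bridges the ends by forming filaments with XRCC4, had 19.6, 21.2 and 20.9 CPM in the mutant rescue against 21.3, 21.4 and 23.0 CPM in the wild-type rescue. Its groups came within 0.1 CPM of each other without overlapping, and the log2 fold change of -0.088 did not pass the test (95% interval -0.21 to 0.037; edgeR, adjusted p = 0.198).

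The ratios between these partners did not overlap between the rescues, and neither did the levels of 72.4% of single tested genes. How often ratios of other gene pairs overlap was not computed. The ratio of LIG4 to XRCC4 counts was 5.92, 5.44 and 5.62 in the mutant rescue against 3.17, 2.97 and 2.85 in the wild-type rescue, 1.89-fold higher. The ratio of LIG4 to NHEJ1 counts was 6.71, 6.55 and 6.31 in the mutant rescue against 2.91, 2.92 and 2.65 in the wild-type rescue, 2.31-fold higher. NHEJ1 relative to XRCC4 went the other way, with ratios of 0.883, 0.830 and 0.890 in the mutant rescue against 1.09, 1.02 and 1.08 in the wild-type rescue. PRKDC relative to XRCC5 was 2.09, 2.04 and 2.10 in the mutant rescue against 1.44, 1.69 and 1.49 in the wild-type rescue, and the highest wild-type value is that of replicate 2. A ratio shows unequal change of its partners and does not say which of them changed. With 3 libraries a group an exact permutation test cannot go below p = 0.1, so the ratios were not tested.

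**Figure D3:**
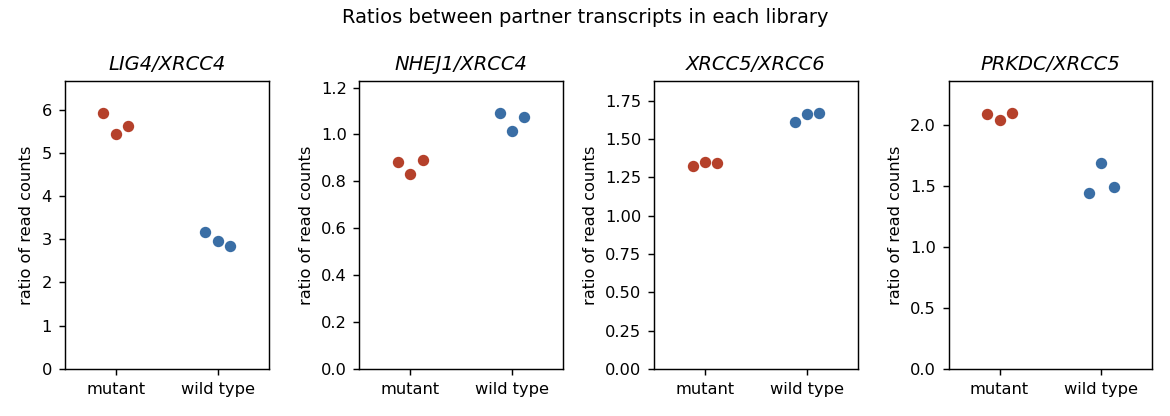
Ratios of raw read counts between partner transcripts, 1 point per library, with each axis starting at 0. In all 4 panels the mutant and wild-type rescue libraries do not overlap, with LIG4 over XRCC4 at 5.44 to 5.92 in the mutant and 2.85 to 3.17 in the wild-type rescue. No share over other gene pairs was computed.

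The chromatin factors differed from each other. MDC1, the adaptor that reads phosphorylated H2AX next to a break, had 251, 246 and 241 CPM in the mutant rescue against 314, 302 and 306 CPM in the wild-type rescue. The gap between the groups was larger than the range within either. MDC1 was 1.25-fold lower (log2 -0.32, SE 0.031; edgeR, adjusted p = 1.18e-08). TP53BP1, which protects ends from resection and is needed for class switching, had 123, 133 and 127 CPM in the mutant rescue against 121, 122 and 125 CPM in the wild-type rescue. These groups overlapped. The log2 fold change was 0.060, with a 95% interval of -0.014 to 0.13 (edgeR, adjusted p = 0.14), and it passed the threshold when libraries were scaled by their size alone (log2 0.085, adjusted p = 0.0213). The 3′ ends of TP53BP1 and TUBGCP4 overlap on opposite strands, so reads there cannot be assigned with certainty. The ratio of TP53BP1 to MDC1 counts was 0.491, 0.539 and 0.529 in the mutant rescue against 0.385, 0.405 and 0.407 in the wild-type rescue.

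Levels of the 9 genes were compared with each other as CPM per kilobase of the longest GENCODE v29 transcript, a scale on which the order depends on the transcript chosen. In the mutant rescue XRCC6 and XRCC5 were the most abundant, at 168 ± 6.31 and 162 ± 7.10 CPM per kilobase (SD, n = 3), and these neighbours overlapped in their libraries. In the wild-type rescue XRCC5 at 215 ± 6.72 stood above XRCC6 at 181 ± 2.61, without overlap. PRKDC came next in both, at 93.5 ± 2.76 in the mutant and 92.3 ± 10.5 in the wild-type rescue. MDC1 followed, at 32.5 ± 0.651 in the mutant and 40.6 ± 0.811 in the wild-type rescue. LIG4 overlapped with MDC1 in the mutant rescue, at 32.1 ± 0.999, but at 14.8 ± 0.183 in the wild-type rescue it lay below both MDC1 and DCLRE1C. DCLRE1C had 23.3 ± 1.07 in the mutant and 18.1 ± 0.675 in the wild-type rescue. The lowest were XRCC4 (14.0 ± 0.996 in the mutant, 12.2 ± 0.580 in the wild-type rescue), TP53BP1 (12.3 ± 0.463 in the mutant, 11.8 ± 0.176 in the wild-type rescue) and NHEJ1 (9.75 ± 0.402 in the mutant, 10.4 ± 0.441 in the wild-type rescue). XRCC4 did not overlap with TP53BP1 in the mutant rescue and overlapped with it in the wild-type rescue, and the other neighbours in these orders did not overlap.

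Genes that start head to head with an end-joining gene did not all move with it. There were 5 such pairs that do not overlap and have under 1000 bases between them in the RefSeq gene order (GRCh38.p14). DCLRE1C and MEIG1, which also run apart but overlap, were left out of these pairs, and MEIG1 had a log2 fold change of 0.29 that did not pass the test (edgeR, adjusted p = 0.406). ABHD13, 42 bases from LIG4, had 1239, 1390 and 1208 counts in the mutant rescue against 916, 926 and 914 in the wild-type rescue. It rose with LIG4 but by less, 1.40-fold (log2 0.49, 95% interval 0.38 to 0.60; edgeR, adjusted p = 6.17e-08), against an interval of 1.04 to 1.2 for LIG4. TMEM167A, 152 bases from XRCC4, fell by 0.35 on the log2 scale (SE 0.043; edgeR, adjusted p = 4.93e-07), opposite to XRCC4. PPPDE2 (DESI1), 251 bases from XRCC6, had 50.7 ± 0.740 CPM in the mutant and 101 ± 2.36 CPM in the wild-type rescue (SD, n = 3). It fell by 1.00 on the log2 scale (SE 0.039; edgeR, adjusted p = 3.81e-15), against -0.11 for XRCC6. MCM4, a subunit of the replicative helicase and 804 bases from PRKDC, had 12314, 12751 and 12200 counts in the mutant rescue against 20723, 20196 and 20810 in the wild-type rescue. It fell by 0.72 on the log2 scale (SE 0.029; edgeR, adjusted p = 8.04e-15), an interval of -0.78 to -0.66 that lies apart from that of PRKDC. MAP1A, 313 bases from TP53BP1, had a log2 fold change of -0.073 and did not pass the test (edgeR, adjusted p = 0.258).

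**Figure D4:**
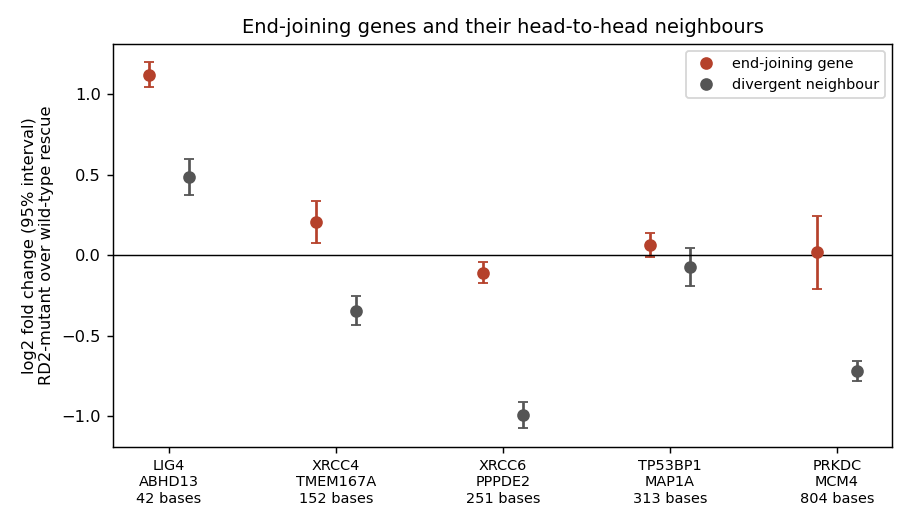
Log2 fold changes (RD2-mutant over wild-type rescue) with 95% intervals for 5 end-joining genes and the genes that start head to head with them, ordered by the number of bases between them. The intervals of the partners do not overlap in the pairs of LIG4, XRCC4, XRCC6 and PRKDC, and both genes rose in the LIG4 pair, both fell in the XRCC6 pair and the XRCC4 pair moved in opposite directions.

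On the list of genes for break formation in V(D)J recombination and class switching, 5 of 13 genes were called higher and 7 lower. These counts stand beside 35.4% of tested genes called higher and 34.8% called lower. Of the 13 genes, 1 missed the threshold, and their median log2 fold change was -0.14. Their median absolute log2 fold change was 0.48, beside 0.20 for the 9 end-joining genes and 0.29 over tested genes, on a list chosen with earlier results of these data known. RAG2, the partner of RAG1 in the recombinase, had 1349, 1473 and 1428 counts in the mutant rescue against 481, 472 and 442 in the wild-type rescue. It rose 3.07-fold (log2 1.62, SE 0.055; edgeR, adjusted p = 4.56e-16), beside a log2 fold change of 4.15 for RAG1. The DNA-bending cofactors HMGB1 (0.62) and HMGB2 (0.76) rose as well, a lone number in parentheses being a log2 fold change. Among genes for enzymes that act on DNA lesions during class switching, UNG (-0.48), APEX1 (-0.43), PMS2 (-0.51) and MSH6 (-0.14) fell. The exonuclease gene EXO1 (0.21) rose, and APEX2 was at -0.066 without passing the test.

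Of 12 accessory end-joining genes counted, 6 were called higher, 3 lower and 3 neither (median log2 fold change 0.082). Over tested genes, 35.4% were called higher and 34.8% lower. ERCC6L2, present under an older symbol, was not counted here and is given with the other observations. DNTT, the terminal transferase that adds untemplated bases at V(D)J joints, had 39, 50 and 35 counts in the mutant rescue against 2, 0 and 0 in the wild-type rescue. It rose (edgeR, adjusted p = 2.24e-09), and the ratio of the summed counts, scaled by library size, was 62.4, with an interval of 16.9 to 521 from counting error alone. Its level in the mutant rescue was 1.54 ± 0.284 CPM (SD, n = 3). Of the related polymerase genes, POLM (0.35) rose and POLL was at -0.082 without passing the test. APLF, a histone-binding scaffold of the pathway, rose (0.51) at a low level of 3.71 ± 0.207 CPM in the mutant and 2.60 ± 0.126 CPM in the wild-type rescue. C7orf49 (CYREN, 0.24), which inhibits end joining in some phases of the cell cycle, and TDP1 (0.18) and TDP2 (0.13), which free ends from trapped topoisomerases, also rose. C9orf142 (PAXX, -0.25), a relative of XRCC4 and NHEJ1 that binds Ku, APTX (-0.14) and SETMAR (-0.33) fell. WRN, a helicase gene, was at -0.12 and did not pass the test.

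Of 20 genes for break signalling and end protection, 8 were called higher, 6 lower and 6 neither (median log2 fold change 0.059). Over tested genes, 35.4% were called higher and 34.8% lower. H2AFX, the histone whose phosphorylated form MDC1 reads, rose 1.83-fold (log2 0.87, SE 0.083; edgeR, adjusted p = 8.25e-06), with 1625, 1509 and 1866 counts in the mutant rescue against 885, 955 and 905 in the wild-type rescue, while MDC1 fell. MAD2L2, a part of the shieldin complex that acts after TP53BP1, rose 1.56-fold (log2 0.64, SE 0.042; edgeR, adjusted p = 1.95e-11). The other shieldin genes on the list split, with C20orf196 (SHLD1, 0.27) rising and FAM35A (SHLD2, -0.23) falling. RIF1 (-0.15), which links TP53BP1 to shieldin, fell as well. Within the complex that senses breaks and activates ATM, RAD50 (-0.26) and MRE11A (-0.16) fell. NBN (0.095), of the same complex, was called higher (edgeR, adjusted p = 0.0329), but its groups overlapped. ATM (0.12) rose. The deubiquitinase gene USP28 (0.38), whose product binds TP53BP1, rose, and NUDT16L1 (-0.27), whose product holds TP53BP1 off chromatin, fell. RNF168 (0.19), the ubiquitin ligase that makes the mark TP53BP1 reads, rose.

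The genes for alternative end joining, which works at ends that have been resected, were split. Of 8, 3 were called higher, 3 lower and 2 neither (median log2 fold change -0.049). POLQ, the polymerase that defines the pathway, rose 1.32-fold (log2 0.40, SE 0.037; edgeR, adjusted p = 4.94e-09), and PARP2 (0.39) and XRCC1 (0.21) rose. LIG3 (-0.15) and LIG1 (-0.12), the ligases that can seal such ends, fell, as did the flap nuclease gene FEN1 (-0.28). PARP1 was at -0.045 and RBBP8 (CtIP), which starts resection, at -0.053, and neither passed the test. Of the 3 human DNA ligase genes, LIG4 rose while LIG1 and LIG3 fell. The shares called in the lists of accessory, signalling and alternative end-joining genes were 75%, 70% and 75%, near the 70.1% of tested genes, and 92.3% on the list for break formation. All these lists were chosen with earlier results of these data known, so the shares are not independent of those results.

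**Figure D5:**
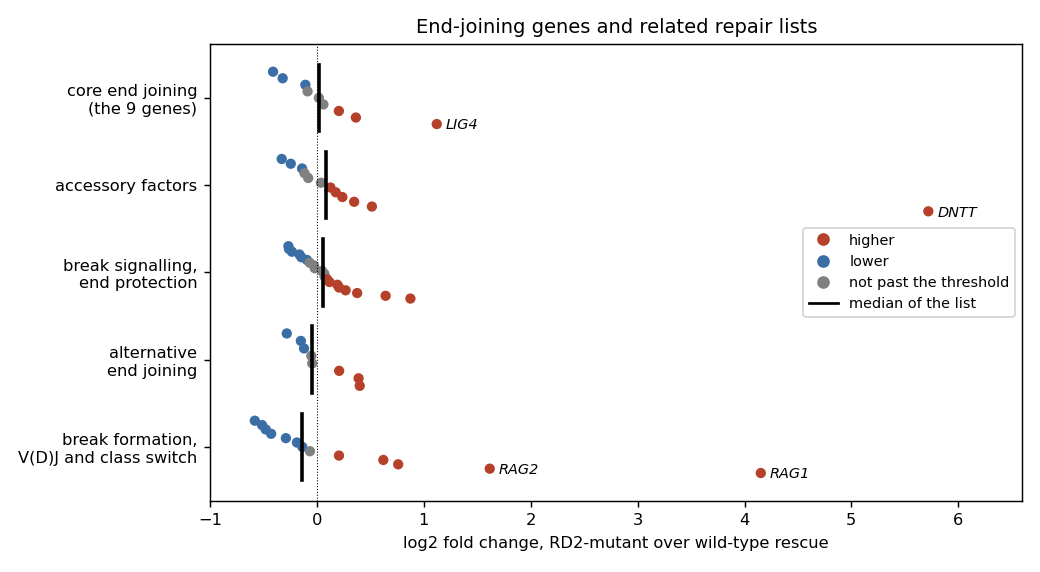
Log2 fold changes (RD2-mutant over wild-type rescue) of the tested genes on 5 lists, 1 point per gene, coloured by the result of the edgeR test, with a line at each list's median. LIG4 (1.12), DNTT, RAG2 (1.62) and RAG1 (4.15) are the genes past 1 on this scale; the plotted fold of DNTT rests on 2 counts in the wild-type rescue and depends on the fit's prior count.

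Among tested genes, those most like LIG4 over the 6 libraries were SLC17A7, C18orf54 and FAM3C, whose log2(CPM + 0.5) centred on its mean differed from that of LIG4 by 0.0152, 0.0226 and 0.0236 (root mean square). Their log2 fold changes in the edgeR fit were 1.51, 1.1 and 1.11, and SLC17A7 is matched only on the scale with the added 0.5, since it had just 0.879 CPM in the wild-type rescue. Those most like XRCC5, which had the lowest fold change of the 9 genes, were RNF20, LTBP1 and SMARCC1, with differences of 0.0093, 0.0108 and 0.0146 and log2 fold changes of -0.40, -0.42 and -0.40. With 6 libraries in 2 groups, such likeness mostly restates the fold change.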

How the data were processed

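RNA sequencing libraries of OCI-LY1 cells were analysed, 3 for each rescue. Per the labels' protocols, Trizol RNA went into Illumina TruSeq libraries. The tools named per the submitters' processing notes are CASAVA 1.8.2, STAR and edgeR, and the genome build is hg19; the sources used here do not give the counter, annotation, strand setting or multi-mapping rule. What the authors deposited is a table of raw counts by gene symbol, with no pooling. Replicate libraries differed by more than counting noise (chi-square per degree of freedom 1.60 to 5.47), so all 6 were kept.

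Counts were analysed in R 4.3.3 with edgeR 4.0.16 (filterByExpr, TMM, robust dispersions, glmQLFTest, no covariate), with p-values adjusted over all 12406 tested genes. SE is the log2 fold change divided by the root of F. The code was tested on simulated data. Alternatives used other scalings, filters, DESeq2 1.42.0, limma 3.58.1 (voom), glmTreat, a replicate block and each library left out. The members and lists were chosen with earlier results of these data known. Besides the 9 genes, the genes named were the list members with the smallest p, those past 1 on the log2 scale, nearest tested neighbours and nearest patterns; further list members were named after their values were seen, and some list members are not reported here. Gene order, distances and sequences came from RefSeq GRCh38.p14. Strands came from the RefSeq promoter windows or, for genes without a window, from GENCODE v29. Transcript lengths came from GENCODE v29, matched for 95.7% of tested genes.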

Additional observations from a re-analysis of the deposited data

How the results depend on the processing

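Across 15 alternatives, LIG4, XRCC5, DCLRE1C and MDC1 kept their direction and passed the test each time, with log2 fold changes of 1.09 to 1.15, -0.45 to -0.39, 0.33 to 0.40 and -0.34 to -0.30. NHEJ1 never passed it (-0.11 to -0.048). XRCC4 (0.15 to 0.25) and XRCC6 (-0.14 to -0.083) passed in 14 and missed it against a minimum change of 1.2-fold, which also lowered the count over tested genes to 4585, since that test asks for more than a difference from 0. PRKDC turned to -0.0074 without mutant rescue replicate 2 and to -0.053 without wild-type rescue replicate 1, and it passed at 0.12 without wild-type rescue replicate 2; the cause was not tested. The median of the 9 genes ranged from -0.053 to 0.063 over the libraries left out. It was the value of PRKDC except without wild-type rescue replicate 2, where it was that of TP53BP1. Same-numbered libraries did not all deviate together, with correlations of 0.427 for number 1, 0.44 for number 2 and -0.0785 for number 3. Between numbers 1 and 2 the crossed correlations were -0.459 and -0.466. Mutant rescue replicate 3 correlated best with wild-type rescue replicate 1, at 0.203. Whether numbers 1 and 2 mark a shared origin was not tested, and the main fit used no pairing. With the replicate number as a block, 9285 genes passed in place of 8702, and again 3 of the 9 genes were higher and 3 lower. The median log2 fold change over tested genes lay between 0.0047 (RLE) and 0.036 (library size alone) under the 4 scalings. The 9 genes had 526 to 36644 counts per library, while DNTT, with 2 counts in the wild-type rescue, is limited by depth.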

Other observations

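Of the 18 nearest tested neighbours of the 9 genes, 5 were called higher, 9 lower and 4 neither (edgeR quasi-likelihood test), against 35.4% of tested genes called higher and 34.8% called lower. Beyond the head-to-head pairs, NRM, a nuclear envelope gene on the same strand as MDC1 and 8386 bases from it, rose by 0.63 on the log2 scale while MDC1 fell. SUV39H2, a histone methyltransferase gene that overlaps DCLRE1C on the opposite strand, rose by 0.14 (adjusted p = 0.0273), less than DCLRE1C, and its groups overlapped. TUBGCP4, which overlaps TP53BP1 on the opposite strand, fell by 0.29 (adjusted p = 3.78e-06). ERCC6L2, an end-joining factor that the table lists under the older symbol C9orf102 and that was not counted with the accessory genes, rose by 0.37 (adjusted p = 9.98e-05), with 16.1 ± 0.607 CPM in the mutant and 12.4 ± 0.713 CPM in the wild-type rescue (SD, n = 3).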
